A study of Homo sapiens with 2 samples.

Results

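The clusters described here are places, far from any gene annotated by the authors, to which RNA recovered with Flag-RBM47 was mapped. They were chosen by the location label, which had to be deep_intergenic and nothing else, and selected on tag counts as well, since the clusters inside the 3 stretches of the genome that held the most such tags were left out. This left 35386 of 233546 clusters, or 15.2%. They are called scattered deep intergenic clusters. The cells were MDA231-BrM2a, a non-clonal, brain metastatic line derived from MDA-MB-231 breast cancer cells. For both libraries they expressed wild-type RBM47 with a Flag tag, were given doxycycline at 1 ng/ml over 3 days to induce it, and were then irradiated with UV light. HITS-CLIP uses this light to crosslink RNA to the proteins in contact with it, so that RNA recovered with the Flag tag can be sequenced. The 2 replicates formed 1 group. Libraries without Flag-RBM47 are not analysed here, and tags from unspecific recovery could not be told from others.

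RBM47 is an RNA-binding protein of the nucleus that takes part in splicing, in mRNA stability and, with APOBEC1, in C-to-U editing of RNA. CLIP sequences RNA, so a correctly mapped tag between genes comes from sequence that was transcribed. It is known that polymerases run on past the site where an mRNA is cleaved, and that many long noncoding RNA genes entered gene annotations only gradually. Neither process was measured in this assay. The sequences of the clusters are not shown, because the coordinates are those of hg18, as named in the submitters' processing notes, and no genome of that build was at hand.

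A tag is a unique read, as the authors counted them. The table held 999047 replicate 1 tags and 3489697 replicate 2 tags, and it listed only clusters with at least 1 tag in each replicate and 5 in total. These sums are therefore not library depths. With 2 libraries an exact two-sided permutation test over library values cannot give a p below 0.333, so classes of clusters are compared by their values in each library. Wilson 95% intervals are given where a share rests on counts. They cover counting error only and treat clusters or tags as independent, which clusters of 1 transcript are not.

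The label was first checked against the positions in the table. None of the scattered clusters carried a gene ID (0 of 35386), 32 lay closer than 10 kb to a gene-labelled cluster on the same strand, and 0 closer than 9 kb. A gene-labelled cluster is any cluster to which the authors gave a gene symbol. The strand column followed that of known genes, since 6998 of 7023 genes with a single match in GENCODE had their largest cluster on the annotated chromosome and strand. None of the 82 mitochondrial clusters was a member (0 clusters).

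Scattered deep intergenic clusters held 9.37% of the replicate 1 tags and 8.44% of the replicate 2 tags, with a mean of 8.91% ± 0.661 (SD, n = 2). With the 3 stretches of most tags left out, their medians of size and length were those of intron clusters and lower than those of 3'UTRs. Their median was 7 tags (2 in replicate 1 and 6 in replicate 2), against 7 tags in introns, 8 within 10 kb downstream of genes and 13 in 3'UTRs. The median length was 78 nt in scattered and in intron clusters alike, 83 nt in downstream clusters and 92 nt in 3'UTR clusters. The shortest scattered cluster spanned 19 nt and the longest 1266 nt.

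The shares of clusters above a tag minimum depended on the choice of members, which removed the stretches with the most tags. At least 10 tags were found in 31.8% of the scattered clusters (Wilson 95% interval 31.3 to 32.3), in 28.7% of intron clusters (28.5 to 29), in 43.2% of downstream clusters (42.4 to 44) and in 64.4% of 3'UTR clusters (63.9 to 64.8). At least 100 tags were found in 154 scattered clusters, or 0.435% (0.372 to 0.509), against 0.307% (0.274 to 0.343) in introns, 1.35% (1.18 to 1.55) downstream and 6.38% (6.14 to 6.63) in 3'UTRs. The scattered share was thus above the intron share at both minimums, by a small margin. In replicate 2 alone, 0.263% of the scattered clusters and 0.187% of the intron clusters reached 100 tags. In replicate 1 alone only 2 scattered and 12 intron clusters did, or 0.00565% and 0.0121%, so the order at 100 tags was not the same in both libraries. At 10 tags it was, with 2.25% against 1.82% in replicate 1 and 21.2% against 18.8% in replicate 2. The 3 stretches that the choice of members removed had 6.32% of their 4782 clusters at 100 tags. With them put back, 36.2% of all 40168 deep intergenic clusters had at least 10 tags (35.7 to 36.6) and 1.14% at least 100 (1.04 to 1.24), so the nearness of the scattered clusters to introns holds for these members and not for deep intergenic clusters as a whole.

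**Figure D1:**
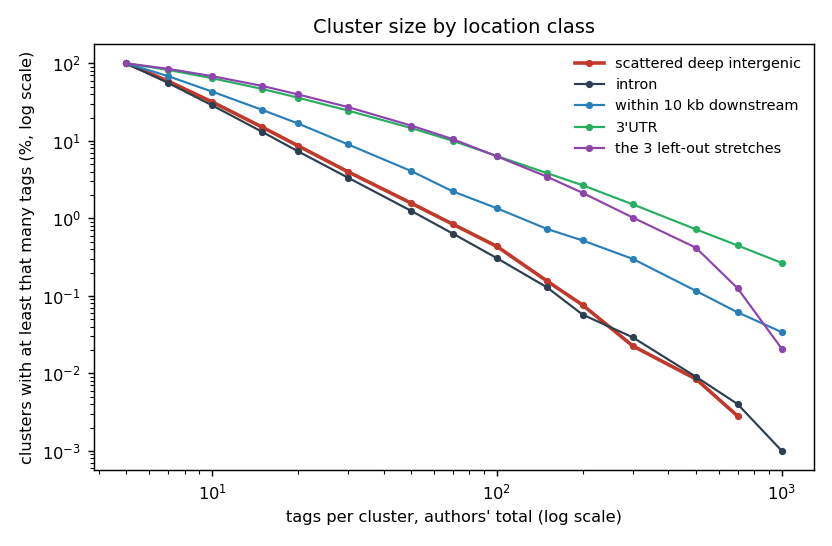
Share of clusters (%, log scale) with at least a given number of tags by the authors' total (log scale), for scattered deep intergenic clusters and 4 other classes. The scattered curve runs beside that of introns, with 31.8% against 28.7% at 10 tags, and below those of downstream and 3'UTR clusters.

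The agreement between the libraries was also that of shallow clusters. Across scattered clusters Spearman's rho of the tags was 0.259 and Pearson's r of log2(tags + 1) was 0.523, against 0.220 and 0.490 in introns and 0.732 and 0.863 in 3'UTRs. These values are across clusters of the same 2 libraries and carry no p. Replicate 1 supplied 24.1% of the scattered tags (Wilson 95% interval 24.0 to 24.3), the same as in introns (24.1%, 24.0 to 24.2) and more than downstream (22.5%) or in 3'UTRs (21.1%). That share moved with cluster size in every class. In scattered clusters of 5 to 9 tags it was 27.5%, in those of 10 to 29 tags 22.2%, and in those of 100 tags or more 21.3% (20.8 to 21.8). In 3'UTR clusters the same sizes gave 26.1%, 21.3% and 20.7%. Clusters without a replicate 1 tag were not listed, which by construction raises this share in small clusters. How much of the trend came from the listing was not tested. Since 68.2% of the scattered clusters and 35.6% of the 3'UTR clusters had 5 to 9 tags, the difference between the classes was smaller at matched size.

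The top 1%, or 354 clusters, held 9.46% of the scattered tags in replicate 1 and 11% in replicate 2, against 25.0% and 25.6% for the top 1% of 3'UTR clusters. The plus strand held 55.4% and 55.5% of the scattered tags.

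Although single clusters were small, they lay in long chains. Scattered clusters on the same strand were joined into a stretch where no more than 10 kb separated them. This gave 2635 stretches. Of the members, 30900 or 87.3% were in 467 stretches of at least 10 clusters, and 1273 or 3.6% stood alone. Stretches of at least 1000 tags numbered 77 and held 62.5% of the scattered tags, and 40 stretches were at least 100 kb long. The 20 largest held 34.7% of the scattered tags in replicate 1 and 37.1% in replicate 2, or 35.9% ± 1.70 (SD, n = 2). The size of stretches was used to choose the members. The smallest of the stretches left out, on chromosome 2, held 21546 tags and the largest one kept held 14083.

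Most of the large stretches had listed clusters on a single strand. Within the bounds of the 77 large stretches, 67 had no listed cluster of any kind on the opposite strand, and in 74 the opposite strand held under 5% of the tags. The highest value was 16.2%. No such value was computed for other regions, so it is not known how often an opposite strand without clusters occurs elsewhere. The replicate 1 share of the 77 stretches ranged from 19.5% to 28.0%, with a median of 23.9%. Only clusters with at least 1 tag in each replicate were listed, so a stretch seen in a single library could not appear.

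The largest stretch, on chromosome 1 (minus strand, 171032603 to 171169214), spanned 137 kb with 465 clusters. It had 3161 replicate 1 tags and 11099 replicate 2 tags, or 3.16 and 3.18 per 1000 tags of the replicate. No gene-labelled cluster was near. The closest on that strand was an intron cluster of LOC100506023, a long noncoding RNA gene, 418 kb away on the 5' side, and on the 3' side a coding cluster of PIGC, a subunit of the enzyme that starts GPI anchor synthesis, 355 kb away. Most of its tags, 85.3% in replicate 1 and 85.9% in replicate 2, lay on its 5' side, meaning the first 50% of its length.

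The second, on chromosome 1 (plus strand, 191500798 to 191882362), was the longest at 382 kb, with 956 clusters. It had 2.73 and 2.61 tags per 1000 in replicates 1 and 2. On its 5' side it came within 209 nt of a cluster labelled as downstream of a gene, and 10.1 kb from a cluster of CDC73, which encodes parafibromin of the PAF transcription elongation complex. Since the authors called sequence deep intergenic only beyond 10 kb from a gene, this stretch began where the downstream label ended.

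The third, on chromosome 2 (plus strand, 17713568 to 17788612), had 2.51 and 2.40 tags per 1000. It ran the other way round, ending 6 nt before a cluster labelled as upstream of a gene and 10.4 kb before a 5'UTR cluster of GEN1, a Holliday junction resolvase. Its clusters covered 65.3% of its 75.0 kb, the highest coverage among the first 15. The fourth, on chromosome 5 (minus strand, 86641541 to 86712914), had 2.33 and 2.36 tags per 1000. It began 7 nt after a downstream cluster and 10.1 kb after a cluster of CCNH, which encodes cyclin H of the CDK-activating kinase.

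**Figure D2:**
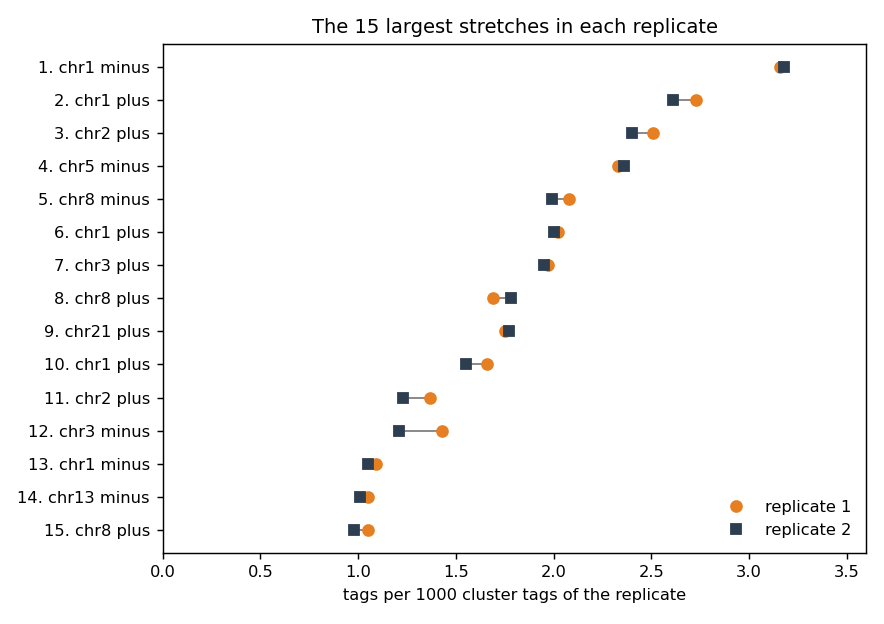
Tags per 1000 cluster tags of each replicate (horizontal axis) for the 15 stretches with the most tags, numbered by rank with chromosome and strand. Circles are replicate 1 and squares replicate 2, and the lines join them. The first stretch lies at 3.16 and 3.18 and the last at 1.05 and 0.979.

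Stretches 5 and 6 in rank did not differ beyond the spread of their replicates, at 2.04 ± 0.0591 and 2.01 ± 0.0145 tags per 1000 (SD, n = 2). Stretch 7, at 1.96 ± 0.0149, was below both in each replicate. The fifth (chromosome 8, minus strand, 106892354 to 107141853) had gene-labelled clusters no closer than those of ANGPT1, 1191 kb to its 5' side, and LRP12, 1224 kb to its 3' side. It nevertheless ended 4.67 kb before a cluster labelled as upstream of a gene. The sixth (chromosome 1, plus strand, 98300039 to 98438773) ended 58 nt before an upstream cluster and 10.2 kb before an intron cluster of LOC729987, now named LINC01776. The seventh (chromosome 3, plus strand, 166660943 to 166746500) was the most isolated of these, with NMD3 at 4207 kb and SERPINI1 at 2193 kb.

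The seventh and eighth stretches held most of the tallest clusters. The eighth (chromosome 8, plus strand, 129404560 to 129450810) lay 222 kb beyond a cluster of the noncoding RNA PVT1 and had 1.69 and 1.78 tags per 1000. It held the cluster with the most tags of all members, at 129421261 to 129422076, with 185 replicate 1 and 771 replicate 2 tags and an authors' total of 953. The next by tags was in the seventh, at 166696413 to 166697187, with 169 and 517 tags and a total of 684. Of the 15 tallest clusters, which ranged from 260 to 953 tags, 5 were in the seventh stretch and 3 in the eighth. Even so, the tallest cluster made up 12.2% of the tags of the eighth stretch and 7.91% of those of the seventh. In the other 13 of the first 15 stretches it made up between 0.812% and 4.46%.

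The ninth stretch, on chromosome 21 (plus strand, 29666243 to 29878542), spanned 212 kb and had 1.75 and 1.77 tags per 1000. It began 78 nt after a downstream cluster and 10.1 kb after a 3'UTR cluster of BACH1, a haem-regulated transcription repressor, and stopped 13.4 kb before an intron cluster of GRIK1-AS2. In the current RefSeq annotation, which uses another build, 7 genes lie between BACH1 and GRIK1-AS2, of which 6 are long noncoding RNAs and 0 protein coding. It was the only 1 of the 15 stretches with no protein-coding gene between its flanking genes, as the others had up to 9, and the long noncoding RNAs numbered from 2 to 40 over the 15. Genes of either strand were counted, and their positions were not compared with the stretches. The spans between flanking genes differed widely in length, and the counts were not adjusted for it. Clusters of the flanking genes lay 10.1 and 13.4 kb from the ninth stretch, and 6763 and 11.5 kb from the fourteenth. The tenth (chromosome 1, plus strand, 58816186 to 59012341) stopped 3.7 kb before an upstream cluster. An intron cluster of LOC100131060, now JUN-DT, the noncoding RNA transcribed away from the JUN gene, lay 23.2 kb beyond its 3' end. The remaining 5 of the first 15 had between 1.02 and 1.32 tags per 1000 on average. Stretches 11 and 12, with 1.30 ± 0.104 and 1.32 ± 0.155 (SD, n = 2), could not be ordered. Of these 5, the fourteenth (chromosome 13, minus strand, 87131239 to 87261018) ended 415 nt before an upstream cluster and 11.5 kb before the microRNA host gene MIR4500HG.

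The position of stretches relative to genes was then counted over all 77. At the 5' end, 25 stretches came within 1 kb of a cluster labelled as downstream of a gene on the same strand. At the 3' end, 7 came within 1 kb of a cluster labelled as upstream of one. None did both (0 stretches), and 45 did neither. The 25 held 74883 tags and the 45 held 134200, or 31.3% and 56.1% of the tags in large stretches, so most of the tags were in stretches with no such join. Counting joins within 10 kb gave 34 at the 5' end and 13 at the 3' end. The labels were unequally common to begin with, as 14654 clusters of the whole table were labelled downstream alone and 1669 upstream alone, and the counts are given without a test.

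In 23 of the 25, a gene-labelled cluster lay within 20 kb of the join. The genes included CDC73, CCNH, BACH1, PLOD2, a lysyl hydroxylase for collagen, MBNL1, a splicing regulator, NABP1, a single-stranded DNA binding protein, SSR3, a subunit of the translocon-associated complex of the endoplasmic reticulum, and KIAA0020, now PUM3. The stretch often held more tags than the gene before it. For CCNH the gene's own clusters held 56 replicate 1 and 190 replicate 2 tags, those labelled downstream 483 and 1561, and the stretch 2331 and 8246. For CDC73 the gene held 382 and 1304 tags, the downstream clusters 294 and 1079, and the stretch 2728 and 9122. For SSR3 the order was reversed, with 976 and 3757 tags in the gene, 537 and 1917 downstream, and 241 and 884 in a stretch of 14.4 kb. In 19 of the 23 the stretch exceeded the gene, and it did so in both replicates. The stretches had been selected on at least 1000 tags and the genes on no minimum, so this count is a description that the selection favours. Genes, downstream windows and stretches differ in length, and these are sums and not levels per length.

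Windows were compared as well. The downstream label covers 10 kb, and it was set against the first 10 kb of the stretch behind it. The downstream window held more tags in 17 of the 23, and in 16 it did so in both replicates. The median ratio of the stretch to the window was 0.685. The stretch behind ZNF460 was only 4.37 kb long, and without it the counts were 16 and 15 of 22 and the median ratio 0.676. NABP1 had 500 and 1745 tags in the window and 327 and 1093 in the next 10 kb. SSR3 had 537 and 1917 tags, followed by 240 and 878. BACH1 had 227 and 864, followed by 165 and 514. The opposite was seen for KIAA0020, with 93 and 395 tags followed by 169 and 632, and for PBDC1 on chromosome X, with 183 and 770 followed by 244 and 1003. For CCNH the libraries differed in order, at 483 and 474 in replicate 1 and 1561 and 1685 in replicate 2.

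The distribution of tags along the stretches leaned to the 5' side. In 63 of the 77, the 5' side held more than 50% of the tags, with a median of 64.9%. Among the 25 joined to a downstream cluster it was 22 of 25, with a median of 70.8% and a range from 38.5% to 98.9%. Among the other 52 it was 41, with a median of 62.3% and a range from 16.1% to 86.0%. In both replicates separately the counts were 22 and 39. The CDC73 stretch had 72.4% of its replicate 1 tags and 74.2% of its replicate 2 tags on its 5' side, and the CCNH stretch 78.7% and 78.6%. The SSR3 stretch had 98.8% and 99%. The stretch behind PAWR, a proapoptotic factor, went the other way with 37.8% and 38.6%, as did the one behind ZNF460 with 39.6% and 42.2%. When clusters were joined only over gaps of up to 1 kb, 63.0% of 54 large stretches leaned to the 5' side, against 81.8% with the 10 kb gap.

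**Figure D3:**
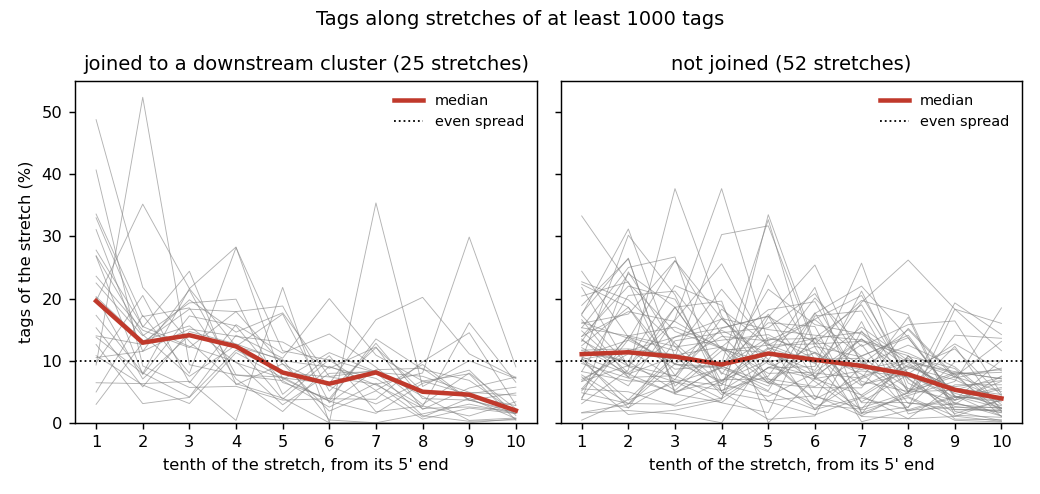
Share of the tags of each large stretch (%, vertical axis) in 10 equal steps along its length, counted from the 5' end, for the 25 stretches joined to a downstream cluster and the 52 not joined. Grey lines are stretches, the red line is the median over stretches and the dotted line an even spread. The median 5' side held 70.8% in the joined and 62.3% in the other stretches.

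Each scattered cluster was also placed by its nearest gene-labelled cluster on the same strand. Within 50 kb there was one for 10286 clusters, or 29.1% (Wilson 95% interval 28.6 to 29.5), and the median distance was 165 kb. On the opposite strand 15.9% had one within 50 kb. No same-strand neighbour lay closer than 9 kb, whereas the opposite strand was not checked for such a bound. The shares of the strands may therefore cover unlike distances. Among same-strand neighbours, 8790 clusters (24.8%) had one within 50 kb on their 5' side and 2438 (6.89%) on their 3' side. In tags these were 26.9% and 8.08% of replicate 1 and 27.5% and 8.35% of replicate 2. By distance, 11% and 11.3% of the tags of replicates 1 and 2 lay 10 to 20 kb beyond the last gene-labelled cluster, 4.63% and 4.59% at 30 to 40 kb, and 0.965% and 0.919% at 90 to 100 kb. Toward a gene on the 3' side the values were 2.28% and 2.43% at 10 to 20 kb and 0.844% and 0.866% at 90 to 100 kb. Both libraries gave the same course. The number of clusters with a neighbour on the 5' side fell too, from 3644 at 10 to 20 kb to 399 at 90 to 100 kb. How much deep intergenic sequence lies at each distance was not measured, so the course is not one of binding per length. A gene-labelled cluster is neither the start nor the end of a gene, so the distances include any unbound sequence at either end. Neighbours on the 5' and 3' sides can also mark different parts of genes, such as 3'UTRs and introns. The comparison of the sides was not adjusted for this.

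**Figure D4:**
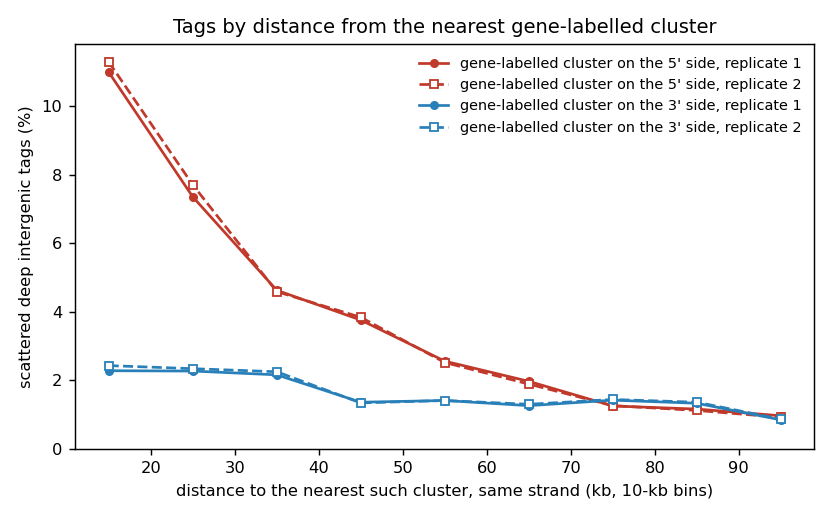
Share of scattered deep intergenic tags (%, vertical axis) by distance in kb to the nearest gene-labelled cluster on the same strand, in bins of 10 kb, for clusters on the 5' and the 3' side and for each replicate. Beyond genes the share falls from 11% and 11.3% at 10 to 20 kb to 0.965% and 0.919% at 90 to 100 kb, and before genes it starts at 2.28% and 2.43%. The shares are not adjusted for the amount of sequence at each distance.

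The chromosomes contributed unequally. The choice of members had removed 3340 deep intergenic clusters from chromosome 11, 819 from chromosome 3 and 623 from chromosome 2. The shares of all chromosomes depend on that choice. Chromosome 1 held 5093 scattered clusters with 17.8% and 18.7% of the scattered tags in replicates 1 and 2, and 13 of the 77 large stretches. Compared with intron clusters, scattered clusters were more common on chromosome 9 (5.09% against 2.17%), chromosome 8 (8.72% against 5.21%) and chromosome 21 (2.52% against 0.985%), and less common on chromosome 10 (1.81% against 5.32%) and chromosome 22 (0.0339% against 0.370%). On chromosome 21, 794 of the 892 scattered clusters were in 2 large stretches, one of them the stretch behind BACH1. Clusters of 1 stretch come from a shared region, and these shares therefore rest on few regions.

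Among the clusters that stood alone, a small number were tall and very short. Of the 1273 lone clusters, 37 had at least 30 tags, and 31 of these were shorter than 50 nt. In stretches of at least 10 clusters, 1362 had at least 30 tags and 2 of these were shorter than 50 nt. The 31 had a median length of 25 nt, from 21 to 49 nt, and from 30 to 571 tags. They were spread over 18 chromosomes. Their replicate 1 share ranged from 1.16% to 60.5%, with a median of 15.2%. This group was set apart after its values were seen and is given as a description.

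**Figure D5:**
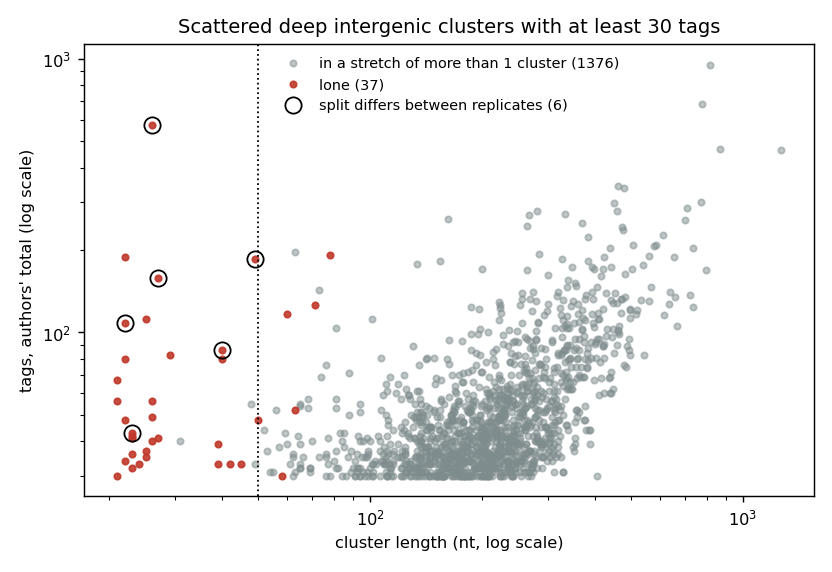
Length in nt (log scale) and tags by the authors' total (log scale) of the scattered deep intergenic clusters with at least 30 tags, for 37 lone clusters in red and 1376 clusters in stretches of more than 1 cluster in grey. The dotted line marks 50 nt, and rings mark the 6 clusters whose split between the replicates differed from that of all tags, all of them lone and left of the line.

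Each cluster's split was set against the 22.3% of all tags that came from replicate 1, by an exact binomial test (two-sided) with p-values adjusted by Benjamini-Hochberg over all 233546 clusters. Of all clusters 0.0111% were called. Among scattered clusters 6 were called, or 0.0170%. The test compares these libraries and not conditions. At an unadjusted p under 0.05, 2.93% of the scattered clusters and 3.04% of all clusters passed. All 6 were lone clusters shorter than 50 nt, and all 6 belonged to the 31 just described. Of all scattered clusters 13.2% were that short, and of the 1413 with at least 30 tags 34 were. Of the 31, 17 had an unadjusted p under 0.05 and 22 had a replicate 1 share below 22.3%.

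Of the 6, 4 had a lower replicate 1 share than expected. On chromosome 12 (minus strand, 22811509 to 22811535) there were 16 replicate 1 and 555 replicate 2 tags, a replicate 1 share of 2.80% (Wilson 95% interval 1.73 to 4.50), with an adjusted p of 1.92e-35 in the exact test. It was the third tallest of all scattered clusters, and its nearest listed neighbour on that strand was 239 kb away. On chromosome 8 (minus strand, 104168075 to 104168102) there were 7 and 151 tags (adjusted p = 1.56e-05, exact test). On chromosome 20 (minus strand, 19828494 to 19828516) there were 2 and 106 tags (adjusted p = 3.50e-05, exact test). On chromosome 1 (plus strand, 146614775 to 146614815) there were 1 and 85 tags (adjusted p = 0.00024, exact test). The other two were higher in replicate 1. A cluster on chromosome 14 (minus strand, 93700545 to 93700568) had 26 and 17 tags (adjusted p = 0.00099, exact test). One on chromosome 2 (minus strand, 32995161 to 32995210) had 71 and 114 tags (adjusted p = 0.0086, exact test). The other 14 of the 15 tallest scattered clusters had replicate 1 shares from 18.0% to 26.8%, and none of these 14 passed the test.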

How the data were processed

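The authors mapped the reads with Novoalign to hg18, as the submitters' processing notes name them without versions, reduced them to unique reads (tags) and clustered them on Galaxy. What they deposited are counts of tags, given for each cluster by replicate and as a total. Of these clusters, 793 ended beyond the chromosome ends of GRCh37, on chromosomes 3 and 19, so no reference sequence was used, and reference annotation served only for the chromosome, strand, symbol and order of genes. Coordinates are as deposited, and whether they count from 0 or 1 is not known. Length is end minus start.

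Clusters of 1 strand no more than 10 kb apart were joined into stretches. The 15 stretches and 15 clusters with the most tags, up to 10 clusters with a discordant split, and the nearest gene-labelled clusters on either side were named; other genes were named as examples after their values were seen. Members, lists and tests were chosen with earlier results of these data known. The labels do not say that the replicates came from separate cultures, so the spread between them may be technical. Current symbols came from RefSeq (GRCh38.p14). Python 3.11.15, numpy 2.4.6, pandas 2.3.3, scipy 1.17.1 and matplotlib 3.10.9 were used. Alternatives were other tag minimums, gaps, distances and scalings, and each replicate left out.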

Additional observations from a re-analysis of the deposited data

How the results depend on the processing

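For the 14 main values, 44 alternatives were run, of which 12 were chosen after seeing the data (those on joined ends, on the number of large stretches and on their 5' sides). 21 stayed within the limits and 23 moved the value. Moved values were not checked for a reversed direction. In replicate 1 alone the order of scattered and intron clusters at 100 tags was the opposite, as given above. Values were held to 1 SD of the replicates or to their 95% interval, and counts to 1.5 times. A minimum of 10 or 30 tags lowered the share of all tags in scattered clusters to 6.56% and 3.51%, lowered their replicate 1 share to 21.9% and 21.4%, raised Spearman's rho to 0.348 and 0.599, raised the median length to 113 and 208 nt, and raised the share within 50 kb of a gene-labelled cluster to 32.9% and 41.2%. That share was 12.1% within 20 kb and 41.4% within 100 kb. Among clusters of at least 10 tags, 1.37% reached 100 tags. Clusters in which both replicates add up to the total gave, taken alone, a replicate 1 share of 24.4%. Counted in clusters, the plus strand held 55.4%. Gaps of 1 kb and 50 kb put 19.1% and 37.9% of the tags in the 20 largest stretches. With the 1 kb gap 13 large stretches were joined at the 5' end and 4 at the 3' end, and 63.0% leaned to the 5' side. Joins within 10 kb numbered 13 at the 3' end. The number of clusters with a discordant split was 6 or 7 under 3 alternatives.

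With each replicate left out, the share of scattered clusters that reached 100 tags lay between 0.00565% and 0.263%, where a fixed minimum is stricter by construction, while the share of all tags ran from 8.44% to 9.37%, the top 1% from 9.82% to 11.1%, the plus strand from 55.4% to 55.5%, the 20 largest stretches from 34.7% to 37.1% and the share leaning to the 5' side from 79.2% to 80.5%. For a mean over 2 replicates the limit of 1 SD is met by construction, except where clusters or stretches were ranked again. No paired analysis was possible because both samples belong to 1 group. The depth of replicate 1 bounds statements on individual clusters, as 65.8% had no more than 2 replicate 1 tags.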

Other observations

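A listed cluster on the opposite strand overlapped 214 scattered deep intergenic clusters, or 0.605%, and 150 intron clusters, or 0.151%. The authors' total was below the sum of both replicates in 11.4% of the scattered clusters, 10.9% of the intron clusters and 19.4% of the 3'UTR clusters. The densest of the 77 large stretches, at 302 tags per kb, was also the shortest, with 18 clusters over 4.37 kb on chromosome 19 (plus strand, 62507370 to 62511741), joined to a downstream cluster behind ZNF460. It had 270 replicate 1 and 1053 replicate 2 tags. The sparsest had 5.36 tags per kb.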
